A study of Mus musculus with 6 samples.

Results

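The genes for 9 receptors that bind hematopoietic growth factors or transmit their signal, Csf1r, Csf2ra, Csf2rb, Csf2rb2, Csf3r, Kit, Flt3, Il3ra and Il6ra, were followed through 2 perturbations of self-renewing mouse myeloid progenitors. They were taken by symbol from a list that was chosen with earlier results of these data known. All 9 were among the 34199 gene symbols counted. All 9 also passed the filter on low counts, which 12460 genes did. The cells were iGMPs, C57Bl/6 granulocyte-macrophage progenitors carrying a Lysozyme-GFP reporter and immortalized by HOXA9 fused to an estrogen receptor domain, so that self-renewal depended on estradiol (E2). They were grown with stem cell factor (SCF) supplied by conditioned medium, and the labels listed no other cytokine. CAF-1 OFF cells carried an shRNA against Chaf1b, which encodes part of the chromatin assembly factor CAF-1, and which 500 µM IPTG induced for 24 h while 150 ng/ml E2 was kept. The study raised its inducible shRNA lines as clones. Control cells also received IPTG for 24 h with E2. HOXA9 OFF cells were washed free of E2 and collected after 24 h. The labels did not say whether HOXA9 OFF cells received IPTG or which shRNA or clone each library came from, and more than E2 may therefore separate HOXA9 OFF from control. Each group had 2 libraries. The study mentions independent subclones for RNA-seq at a later time but does not link them to these libraries, so p-values measure the spread between these libraries, which may be technical.

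Growth factor receptors couple the cytokines around a progenitor to its survival, division and choice of lineage. KIT, FLT3 and CSF1R are receptor tyrosine kinases that dimerize on binding SCF, FLT3 ligand, or M-CSF and IL-34. The GM-CSF, IL-3 and IL-5 receptors each pair a ligand-binding alpha chain with a shared beta chain and signal through JAK2 and STAT5. The mouse has a second beta chain, encoded by Csf2rb2, which serves IL-3 only, whereas IL-6 receptor alpha works with gp130 and the G-CSF receptor acts as a dimer of its single chain. Progenitors are known for KIT and FLT3, and maturing granulocytes and monocytes for the G-CSF, GM-CSF and M-CSF receptors.

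The 6 libraries held 16773560 to 25170898 counts on genes. In CPM (counts scaled to library size with TMM factors), Chaf1b was at 89.95 and 105.1 in control, at 17.8 and 12.1 after its shRNA was induced, and at 64.6 and 61.4 after E2 withdrawal. All 7 GMP markers were detected in every library, with Mpo the highest at 4109 to 8546 CPM. T cell markers did not exceed 3 counts in any library. Megakaryocyte markers, mostly Itga2b, summed to 65.4 and 83.8 CPM in HOXA9 OFF against 24.4 and 27.3 CPM in control, with 73.6 and 35.9 CPM in CAF-1 OFF, also above both controls. Gp1bb of that list was at 0 in every library. Stromal and endothelial markers, mostly Pecam1, summed to 258 and 261 CPM in control, 433.5 and 458 CPM after E2 withdrawal and 299.7 and 329 CPM after CAF-1 depletion. Pecam1 alone had 241 and 235.5 CPM in control, 419.5 and 443 CPM in HOXA9 OFF and 285.9 and 307.7 CPM in CAF-1 OFF. Cdh5 was at 0 in both control and both HOXA9 OFF libraries. For both lists their part in the receptor results was not tested. In bulk samples, fewer cells of a type and less RNA per cell cannot be told apart.

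In control iGMPs the receptor repertoire was led by the receptors of early progenitors. Per length, as RPKM (counts scaled to exon length and library size), Kit was highest at 107 ± 20.3 (SD, n = 2), followed by Flt3 at 45.9 ± 10.5 and Csf2ra at 34.8 ± 0.94. Csf2rb stood at 28.2 ± 3.36 RPKM and Csf3r at 9.06 ± 1.36. Il6ra, at 6.90 ± 3.34 RPKM, overlapped both Csf3r above it and Il3ra below it, which had 5.24 ± 0.24. Csf2rb2 at 2.7 ± 0.27 and Csf1r at 0.79 ± 0.026 RPKM were the lowest of the 9. Every other pair of neighbours in this order had libraries that did not overlap.

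The order in HOXA9 OFF began with Csf2ra at 114.6 ± 6.36 RPKM and Csf2rb at 77.6 ± 3.35 RPKM, the chains of the GM-CSF receptor. Csf1r (48.5 ± 10.5 RPKM) and Kit (48.2 ± 4.53 RPKM) overlapped in the next places, and Flt3 was last at 0.69 ± 0.18 RPKM. Between them came Il6ra at 31.7, Csf3r at 24.4, Csf2rb2 at 16.6 and Il3ra at 7.35 RPKM, each apart from its neighbours. In CAF-1 OFF, Kit was again first at 127.5 ± 16.2 RPKM, followed by Csf2rb at 46.1 ± 1.12, with Flt3 at 41.9 ± 1.51 overlapping Csf2ra at 41.7 ± 2.17. Below them stood Csf3r at 10.9, then Il3ra, Il6ra and Csf2rb2 at 7.28, 6.53 and 4.74, whose successive levels overlapped, and Csf1r at 1.14 RPKM. Kit made up 44.4% of the summed RPKM of the 9 genes in control and 44.2% in CAF-1 OFF but 13.0% in HOXA9 OFF. Flt3 depended on the length used, and over its longest transcript it had 71.7 RPKM in control and 65.5 RPKM in CAF-1 OFF, where it then ranked above Csf2rb. The sum over union exons was 254 and 228 RPKM in control, 279.6 and 296 RPKM in CAF-1 OFF, and 369.5 and 369.6 RPKM in HOXA9 OFF.

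**Figure D1:**
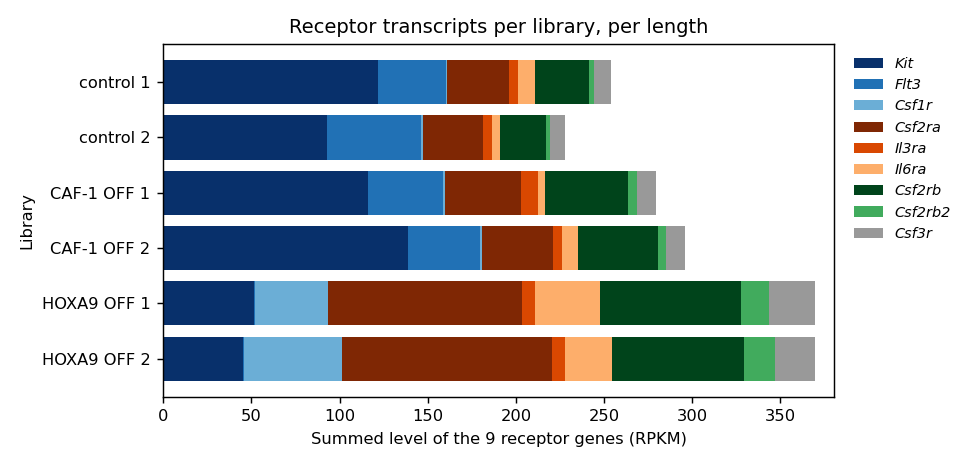
Levels of the 9 receptor genes per length (RPKM, horizontal axis) stacked for each of the 6 libraries (vertical axis), with a color per gene. Kit is the widest block in both control and both CAF-1 OFF libraries, whereas Csf2ra is the widest in both HOXA9 OFF libraries, where Flt3 is too thin to see.

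After E2 withdrawal nearly the whole family moved, and not in a single direction. In HOXA9 OFF against control, 6 of the 9 genes rose (Csf1r, Csf2ra, Csf2rb, Csf2rb2, Csf3r and Il6ra) and 2 fell (Kit and Flt3), where a call by the edgeR quasi-likelihood test needed a 1.5-fold difference and a false discovery rate (FDR) under 0.05. Of all genes tested, 13% were called higher, 8.97% lower and 22% either way. Il3ra was not called. Both HOXA9 OFF libraries lay above both controls for 7 of the 9 genes, Il3ra included, and below them for 2, against 35.1% and 35.9% of all genes tested. The median log2 fold change of the 9 genes was 1.46, and that of all genes tested was -0.0035.

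Among the receptor tyrosine kinases, the 3 genes took different courses. Flt3 (mm9 chromosome 5, 148142317 to 148212065, minus strand) had 237 and 329 CPM in control and 5.02 and 3.46 CPM in HOXA9 OFF, the latter from 104 and 57 counts. Both HOXA9 OFF libraries lay far below every other library, and Flt3 fell by 6.05 ± 0.25 on the log2 scale (SE, edgeR FDR 0.000102), or 66.1-fold. A lincRNA gene, Gm17398, lies on the opposite strand within the Flt3 locus but shares 0 bp of its exons. The sum of 5 B cell markers moved the same way, from 130 and 151 CPM in control and 168 and 149 CPM in CAF-1 OFF to 54.1 and 63.3 CPM in HOXA9 OFF. This was the fall of Ebf1, at 94.0 and 98.5 CPM in control, while Cd79b alone held 48.3 and 55.8 CPM of the sum in HOXA9 OFF, and the part of these markers was not tested. Kit (chromosome 5, 75970941 to 76052747, plus strand), the receptor for the SCF in the medium, went from 709.5 and 542 CPM in control to 299.7 and 262 CPM. The groups did not overlap, and Kit fell by 1.16 ± 0.16 on the log2 scale (edgeR FDR 0.00366), leaving it among the 4 highest receptors per length.

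Csf1r (chromosome 18, 61265226 to 61291803, plus strand), the M-CSF receptor, was barely present in control, with 103 and 73 counts or 4.05 and 4.24 CPM. It reached 4457 and 4824 counts in HOXA9 OFF, or 215 and 292.5 CPM, a 61.3-fold rise (log2 fold change 5.94 ± 0.26, edgeR FDR 0.000103). Its exons share 871 bp, 16.7% of their length, with Hmgxb3 on the opposite strand, and without a stated strand setting reads there cannot be assigned to either gene with certainty. Hmgxb3 stood at 40.4 to 48.2 CPM across the 6 libraries. A list of 7 macrophage and dendritic cell markers moved with Csf1r, summing to 222 and 193 CPM in HOXA9 OFF against 24.7 and 49.2 CPM in control and 33.5 and 34.7 CPM in CAF-1 OFF. The sum was mostly Emr1, which encodes F4/80, at 179.7 and 148 CPM in HOXA9 OFF. Cd209a was at 0 in every library, and the part of these markers in the Csf1r rise was not tested.

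**Figure D2:**
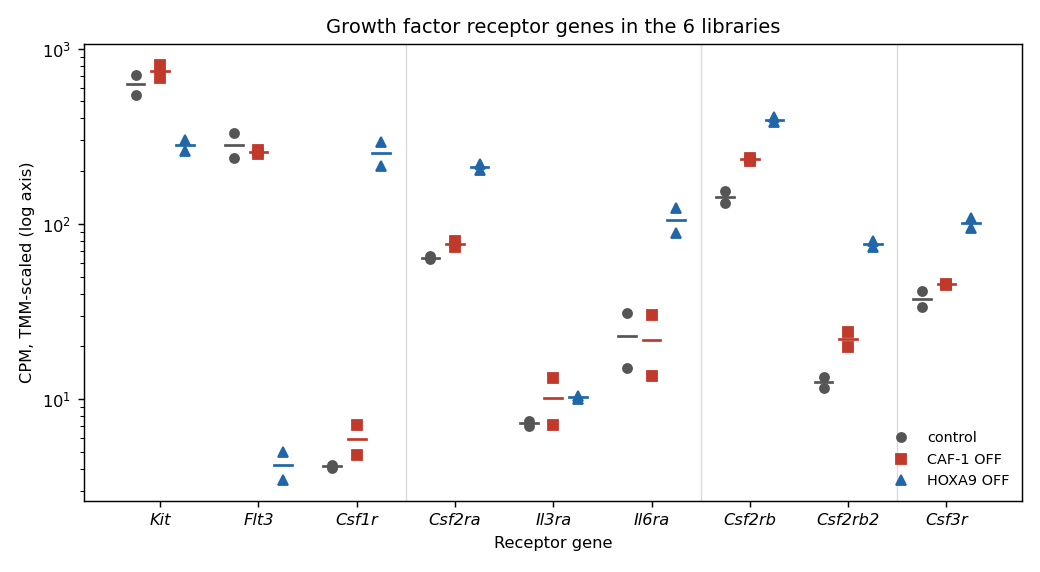
Level of each receptor gene (horizontal axis) in CPM on a log axis, with a point for each library and a bar at the mean of control (circles), CAF-1 OFF (squares) and HOXA9 OFF (triangles). Flt3 drops from 237 and 329 CPM in control to 5.02 and 3.46 CPM in HOXA9 OFF while Csf1r goes from 4.05 and 4.24 CPM to 215 and 292.5 CPM.

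Of the 3 ligand-binding alpha chain genes, 2 were called. Csf2ra (chromosome 19, 61300305 to 61304321, minus strand), the alpha chain of the GM-CSF receptor, had 65.6 and 63.1 CPM in control and 204 and 220.2 CPM in HOXA9 OFF. Its spread within groups was small, and it rose by 1.72 ± 0.10 on the log2 scale (edgeR FDR 0.000281). Il6ra (chromosome 3, 89673246 to 89717084, minus strand) varied more, with 30.95 and 15.2 CPM in control and 123 and 88.5 CPM in HOXA9 OFF. The rise of 2.19 ± 0.45 on the log2 scale was called (edgeR FDR 0.0127), but the call was lost without control 2 (1.77, edgeR FDR 0.0599) or without HOXA9 OFF 1 (1.93, edgeR FDR 0.0554). Without control 1 it was 2.80, or 6.97-fold in place of 4.56-fold. Il3ra (chromosome 14, 15179009 to 15188004, plus strand), the IL-3 receptor alpha chain, was low throughout, with 7.07 and 7.55 CPM in control and 10.4 and 10.1 CPM in HOXA9 OFF. Its difference of 0.49 ± 0.30 on the log2 scale was not called (edgeR FDR 0.265), and the 95% interval from -0.23 to 1.20 leaves room for a rise of over 1.5-fold.

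Both beta chain genes rose. Csf2rb (chromosome 15, 78156420 to 78184277, plus strand) went from 155 and 131 CPM in control to 405 and 381 CPM (log2 fold change 1.46 ± 0.12, edgeR FDR 0.000595). Its neighbor Csf2rb2 (chromosome 15, 78112947 to 78136052, minus strand) went from 13.4 and 11.6 CPM to 73.5 and 80.3 CPM (log2 fold change 2.62 ± 0.16, edgeR FDR 0.00028). The libraries of the groups did not overlap for either gene. Counts of Csf2rb per count of Csf2rb2, a ratio within a library, were 11.6 and 11.3 in control, 9.84 and 11.6 in CAF-1 OFF, against 5.51 and 4.75 after E2 withdrawal.

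The beta chain genes are close copies, and reads that match both equally cannot be split. Their coding sequences (GENCODE, mm9) were identical at 2505 of 2631 aligned bases, or 95.2%. The first 90 coding bases are shown because they display how near the copies are, with the 3 bases that differ in capitals.
Csf2rb: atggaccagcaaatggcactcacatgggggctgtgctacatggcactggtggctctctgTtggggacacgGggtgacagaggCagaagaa
Csf2rb2: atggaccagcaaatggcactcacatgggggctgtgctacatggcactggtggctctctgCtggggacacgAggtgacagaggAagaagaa
Of the 50-base windows in the exons of Csf2rb, 17.4% occurred unchanged in those of Csf2rb2, as did 19.1% in the other direction, and at 100 bases the shares were 6.41% and 7.02%. Counted as 1 feature, the pair had a mean of 156 ± 18.3 CPM in control (SD, n = 2), which was 256 ± 8.80 CPM with CAF-1 depleted and 470.0 ± 12.1 CPM in HOXA9 OFF. The summed pair was 1.60 higher on the log2 scale in HOXA9 OFF than in control (edgeR FDR 0.000493).

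Csf3r (chromosome 4, 125701794 to 125722219, plus strand), the G-CSF receptor that drives neutrophil production, also rose. It had 41.5 and 33.6 CPM in control and 107.8 and 94.5 CPM after E2 withdrawal (log2 fold change 1.43 ± 0.14, edgeR FDR 0.00116). Its 2 HOXA9 OFF libraries lay above the other 4.

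After CAF-1 depletion over the same 24 h, in CAF-1 OFF against control, 0 of the 9 receptor genes were called by the edgeR quasi-likelihood test, against 0.0321% of all genes tested. At an unadjusted p under 0.05 there were 3 of 9 (Csf2ra, Csf2rb and Csf2rb2), against 10.7% of all genes tested. DESeq2 and the edgeR exact test each called 2 of 9 higher, Csf2rb and Csf2rb2, as did the quasi-likelihood test without a filter on low counts. Under these 3 rules 1.31%, 1.68% and 1.44% of all genes were called higher. In 5 of the 9 genes both CAF-1 OFF libraries lay above both controls, as they did for 20.1% of all genes tested. The median log2 fold change of the 9 genes was 0.27, beside -0.0044 over all genes tested.

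Csf2rb stood at 238 and 229.6 CPM against 155 and 131 CPM in control, a log2 difference of 0.71 ± 0.11 with a 95% interval from 0.44 to 0.98 (edgeR FDR 0.152, DESeq2 FDR 2.74e-05). Csf2rb2 stood at 24.2 and 19.8 CPM against 13.4 and 11.6 CPM, a log2 difference of 0.81 ± 0.15 with an interval from 0.45 to 1.17 (edgeR FDR 0.161, DESeq2 FDR 0.0028). For both, the CAF-1 OFF libraries lay between those of control and those of HOXA9 OFF. The summed pair was 0.72 higher on the log2 scale than in control (edgeR FDR 0.138).

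Kit had 676 and 810.1 CPM in CAF-1 OFF, a log2 difference from control of 0.25 with a 95% interval from -0.14 to 0.63. Flt3 had 265 and 252 CPM, within the range of the controls, and its log2 difference was -0.13 with an interval from -0.58 to 0.32. Csf1r had 92 and 141 counts, or 4.78 and 7.14 CPM, and its log2 difference of 0.53 had an interval from -0.076 to 1.13.

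Csf2ra, at 79.96 and 74.3 CPM in CAF-1 OFF, had a log2 difference of 0.26 with an interval from 0.019 to 0.50, and Csf3r, at 44.9 and 45.5 CPM, of 0.27 with an interval from -0.062 to 0.60. The libraries of the low alpha chain genes disagreed within CAF-1 OFF. Il3ra had 13.2 and 7.09 CPM there and Il6ra 13.5 and 30.1 CPM, with intervals of the log2 difference from -0.24 to 1.19 and from -1.15 to 0.97. The library with more Il3ra, CAF-1 OFF 1, was also the highest for 6 mast cell and basophil markers, which summed to 584 CPM there and to 165 to 302 CPM in the other 5. Fcer1a was at 0 in that library and Cpa3 gave 468 CPM of the sum. Without that library the log2 difference of Il3ra was -0.043, and the part of those markers in its level was not tested.

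**Figure D3:**
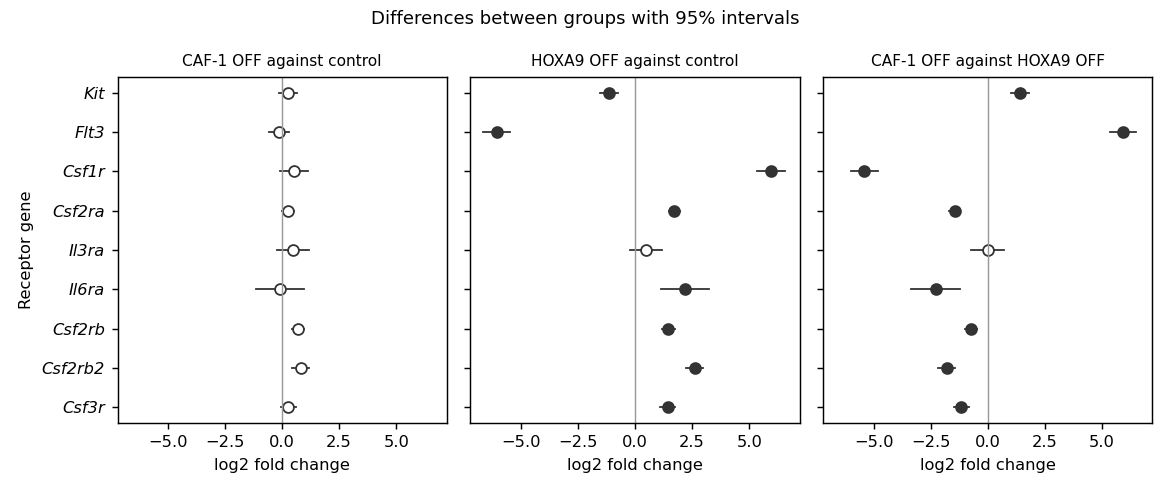
Log2 fold change (horizontal axis) of each receptor gene (vertical axis) with its 95% interval in the 3 comparisons, where filled points were called by edgeR (fold of at least 1.5 and FDR under 0.05) and open points were not. All 9 points are open in CAF-1 OFF against control, and 8 of 9 are filled in the other comparisons.

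Setting the perturbed groups directly against each other tests whether the receptors differed between them. In CAF-1 OFF against HOXA9 OFF, Kit and Flt3 were higher and Csf1r, Csf2ra, Csf2rb, Csf2rb2, Csf3r and Il6ra were lower, while 9.56% of all genes tested were called higher and 12.6% lower. The libraries of these 8 receptors did not overlap, as was the case in the higher direction for 33% and in the lower for 33.7% of all genes. Flt3 was 5.92 ± 0.25 higher on the log2 scale (edgeR FDR 0.000121) and Kit 1.40 ± 0.17 higher (edgeR FDR 0.00219). Csf1r was 42.5-fold lower (a log2 difference of -5.41 ± 0.25, edgeR FDR 0.00016). Csf2rb had the smallest called difference and was lower, at a log2 difference of -0.75 ± 0.11 (edgeR FDR 0.00479), and Csf2rb2 was lower at -1.81 ± 0.15 (edgeR FDR 0.000779). The Il6ra call (log2 fold change -2.28, edgeR FDR 0.012) was lost without HOXA9 OFF 1 (edgeR FDR 0.0504), and the log2 difference was -2.97 without CAF-1 OFF 2. Il3ra differed by -0.015 with a 95% interval from -0.72 to 0.69 on the log2 scale. Both perturbed groups share the controls in the 2 earlier comparisons, and those values are given side by side.

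Few ligand genes were measurable. Like the receptors, this list and those below were chosen with earlier results of these data known. Of 11 cytokine and growth factor genes, 3 passed the filter on low counts. Kitl, which encodes SCF, had 0 counts in every library except control 2, at 0.058 CPM, and 3 counts corresponded to 0.118 to 0.182 CPM at these depths. Csf1, which encodes M-CSF, the ligand of CSF1R, rose in HOXA9 OFF from 8.76 and 9.52 CPM to 32.1 and 95.3 CPM (log2 fold change 2.80 ± 0.48, edgeR FDR 0.00675). Il6, the ligand of the IL-6 receptor, fell from 8.60 and 10.6 CPM to 1.40 and 3.15 CPM (log2 fold change -2.09 ± 0.39, edgeR FDR 0.0094). In CAF-1 OFF, Csf1 stood at 6.29 and 7.39 CPM and Il6 at 7.95 and 6.38 CPM, neither called.

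Of 22 further cytokine receptor genes, 18 were tested. In HOXA9 OFF 6 of these rose and 1 fell, beside 13% and 8.97% of all genes tested, with a median log2 fold change of 0.45. Il5ra, the IL-5 receptor alpha chain and a partner of the common beta chain, rose from 2.16 and 1.34 CPM to 19.9 and 19.4 CPM (log2 fold change 3.47 ± 0.36, edgeR FDR 0.00138). Il4ra rose by 1.48 and Ifngr2 by 1.15 on the log2 scale, while Il10rb fell by 0.77. Il10ra, chosen after its values were seen, had 0 and 0.058 CPM in control and 3.72 and 8.18 CPM in HOXA9 OFF.

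Of 11 JAK kinase and STAT factor genes, which receive the signal, 5 rose in HOXA9 OFF and 0 fell, where 13% of all genes tested rose and 8.97% fell. They included Jak2, the kinase bound by the beta chains, from 41.6 and 44.2 CPM to 111 and 96.0 CPM (log2 fold change 1.27 ± 0.12, edgeR FDR 0.000962), and Stat3, which serves the G-CSF and IL-6 receptors (0.92 ± 0.096, edgeR FDR 0.00142). Stat2 was 0.80 higher on the log2 scale. Of 20 tested adaptors and kinases, 9 rose and 0 fell, read against the same shares of all genes, among them Pik3r5, a regulatory subunit of PI3K gamma (3.34 ± 0.31, edgeR FDR 0.00102), and the Src family kinase gene Fgr (2.61 on the log2 scale). Fes rose by 1.94.

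Of 22 negative regulators of receptor signaling, 3 rose and 8 fell in HOXA9 OFF, beside 13% and 8.97% of all genes tested, with a median log2 fold change of 0.17. The share that rose was near that of all genes. Dusp6, an ERK phosphatase, fell from 301 and 215 CPM to 39.1 and 30.2 CPM (log2 fold change -2.89 ± 0.21, edgeR FDR 0.000475), and Spry1 and Spry2, Sprouty inhibitors of receptor tyrosine kinase signaling, fell by 2.40 and 1.45 on the log2 scale. Both HOXA9 OFF libraries lay below every other library for these 3 genes.

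Of 12 STAT5 target genes, 4 rose and 3 fell in HOXA9 OFF, beside 13% and 8.97% of all genes tested. Pim1, a survival kinase, rose from 10.7 and 11.4 CPM to 87.4 and 91.9 CPM (log2 fold change 3.02 ± 0.14, edgeR FDR 0.000133). Bcl6, which STAT5 is known to repress, rose by 2.85 and Id1 by 1.72 on the log2 scale. Socs2 fell from 2.67 and 6.50 CPM to 1.45 and 1.33 CPM (log2 fold change -1.70 ± 0.45, edgeR FDR 0.03). Cish, the usual readout of STAT5, had 0.813 to 2.00 CPM over the 6 libraries and was not called (edgeR FDR 0.178).

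In CAF-1 OFF the edgeR quasi-likelihood test called 0 genes in each of these 6 lists, beside 0.0321% of all genes tested. The STAT5 targets had the highest median log2 fold change of the lists at 0.56, with 10 of 12 above 0, beside a median of -0.0044 and 6132 of 12460 above 0 over all genes tested. DESeq2 called Pim1, Id1 and Ccnd3 higher, 3 of 12, beside 1.31% of all genes, and of these Ccnd3 was chosen after its values were seen. Pim1 had 27.2 and 22.6 CPM in CAF-1 OFF against 10.7 and 11.4 CPM in control (log2 fold change 1.17 ± 0.14, edgeR FDR 0.0751, DESeq2 FDR 3.19e-08). Id1 had 17.5 and 12.5 CPM against 7.70 and 8.19 CPM (0.92 ± 0.23, edgeR FDR 0.259, DESeq2 FDR 0.0451). Socs2 had 11.1 and 9.27 CPM against 2.67 and 6.50 CPM, higher in both libraries than in either control but not called (edgeR FDR 0.384).

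**Figure D4:**
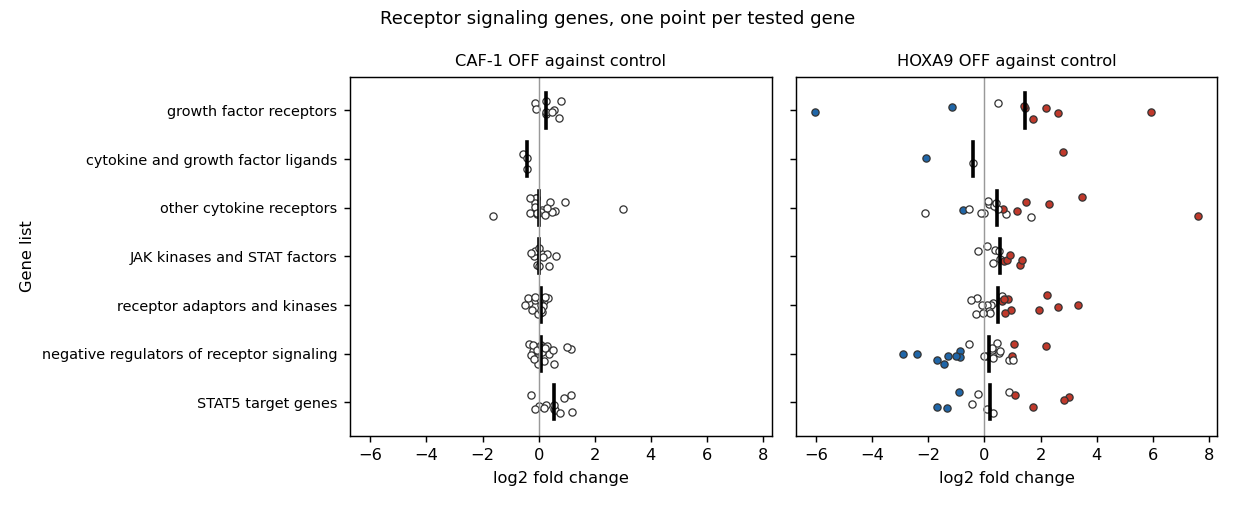
Log2 fold change (horizontal axis) of every tested gene in 7 lists (vertical axis), with the receptors at the top, for each perturbation against control. Red points were called higher and blue points lower by edgeR, open points were not called, and black bars mark list medians, which reach 1.46 for the receptors in HOXA9 OFF.

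The genes whose profiles over the 6 libraries lay closest to each receptor were found by Euclidean distance of centred log2 CPM among 9615 genes with a mean of at least 5 CPM. Klf13, a zinc finger factor, was nearest to Csf3r at a distance of 0.0779. Csf2ra was followed by Tnfrsf1b, a TNF receptor, at 0.167 and by Samhd1, a dNTP hydrolase, at 0.177. Csf2rb was followed by Tmem50b at 0.173 and Plaur, the urokinase receptor, at 0.213, and Csf2rb2 by F10 at 0.264 and Tlr6 at 0.366. Flt3 was nearest to Accn4 at 0.871 and to Rag2, a subunit of the V(D)J recombinase, at 0.886. The mean of Rag2 was 55.6 CPM in control and 52.1 CPM in CAF-1 OFF, against 0.829 after E2 withdrawal. Csf1r was nearest to Dennd2a at 0.536 and to Ctss, the protease cathepsin S, at 0.94. Kit was followed by Zc3hav1l and Heg1, Il3ra by Wbp1 and Acss1, and Il6ra by Lyst and Lcp2. The measure uses 6 libraries in 3 groups, so it mainly compares group means.

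Promoter sequence was read for the members that RefSeq windows held, 7 of the 9 (GRCm38.p6, 250 bases before to 50 after each start). Csf1r and Csf2rb, which both rose in HOXA9 OFF, had no window. The windows were searched on both strands for GAGGAA (the PU.1 core with its usual flank) and TTGCNNAA (C/EBP). TGTGGT (RUNX) and TGATTNAT (HOXA9 with PBX) were searched in the same way, and positions are counted from 0 at the start site. GAGGAA occurred in the windows of Csf2ra, Csf2rb2, Csf3r, Il6ra and Kit and not in those of Flt3 and Il3ra, while 28.3% of 32851 promoter windows of all genes held it. The bases before the start are shown for the genes that rose and had a window, with GAGGAA or its reverse complement in capitals. They are also shown for Flt3, which fell and had no match.
Csf2ra (chr19:61228419-61228668, minus strand): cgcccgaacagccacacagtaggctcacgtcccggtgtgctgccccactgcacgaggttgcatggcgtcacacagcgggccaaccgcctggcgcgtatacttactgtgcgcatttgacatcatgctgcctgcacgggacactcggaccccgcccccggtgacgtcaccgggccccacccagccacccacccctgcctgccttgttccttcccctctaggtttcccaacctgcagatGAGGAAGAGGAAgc
Csf2rb2 (chr15:78305722-78305971, minus strand): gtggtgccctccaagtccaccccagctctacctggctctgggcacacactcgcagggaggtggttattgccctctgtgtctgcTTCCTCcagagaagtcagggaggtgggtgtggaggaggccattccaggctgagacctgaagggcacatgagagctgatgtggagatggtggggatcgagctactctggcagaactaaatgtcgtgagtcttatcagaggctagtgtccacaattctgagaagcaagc
Csf3r (chr4:126024409-126024658, plus strand): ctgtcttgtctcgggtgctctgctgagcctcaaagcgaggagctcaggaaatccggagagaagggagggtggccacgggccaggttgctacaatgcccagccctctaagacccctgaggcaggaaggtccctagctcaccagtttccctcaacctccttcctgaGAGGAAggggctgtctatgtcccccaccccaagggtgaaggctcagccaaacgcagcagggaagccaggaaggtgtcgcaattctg
Il6ra (chr3:89913197-89913446, minus strand): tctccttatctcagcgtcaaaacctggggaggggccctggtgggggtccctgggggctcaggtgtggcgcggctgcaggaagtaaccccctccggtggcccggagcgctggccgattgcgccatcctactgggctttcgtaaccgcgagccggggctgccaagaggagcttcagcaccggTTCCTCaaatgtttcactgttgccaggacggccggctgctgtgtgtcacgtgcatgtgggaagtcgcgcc
Flt3 (chr5:147400490-147400739, minus strand): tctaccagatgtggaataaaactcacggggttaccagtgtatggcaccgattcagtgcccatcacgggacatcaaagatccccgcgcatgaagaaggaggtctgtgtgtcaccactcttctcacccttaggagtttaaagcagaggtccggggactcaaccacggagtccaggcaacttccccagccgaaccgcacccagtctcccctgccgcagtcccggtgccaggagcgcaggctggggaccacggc
The Csf2ra window held tandem matches that begin at -14 and -8, Csf3r had its match at -86 on the same strand, and Il6ra had its match at -70 on the opposite strand. Csf2rb2 had matches at -167 and, beyond the bases shown, at 29, both on the opposite strand. Kit, which fell, held a match at -223 or -227 by its 2 annotated starts. TTGCNNAA was found at -134 of Il3ra and in no other member window, against 10.8% of all windows. TGTGGT and TGATTNAT, present in 16.8% and 3.22% of all windows, were in none of the member windows. A match describes these letters and says nothing about binding.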

How the data were processed

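RNA-seq libraries of mouse iGMPs in 3 groups of 2 were grouped by sample titles. The authors used STAR for alignment to mm9 and HTSeq for counting, and the deposited values were raw counts per gene symbol. The library kit marked strand, but the strand setting, overlap mode and annotation of the counting were not given in the sources used here. HTSeq drops reads that align to several places, which lowers the counts of close copies. The 5 tally lines were left out. Per 100 gene counts they held 5.95 to 8.26 on no gene, 3.00 to 3.28 ambiguous and 89.6 to 106.7 alignments that were not unique.

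Counts were tested with edgeR 4.0.16 in R 4.3.3 (filterByExpr, TMM, quasi-likelihood fit to all 6 libraries, Benjamini-Hochberg FDR over 12460 genes) in 3 comparisons. RPKM used the union of GENCODE exons (NCBIM37, the assembly that mm9 names). Standard errors came from the F statistic of that fit, and intervals cover 95%. The lists and members were chosen with earlier results of these data known. Named genes were the members, the 2 nearest profiles to each, up to 4 called genes of largest change per list (mean CPM 5 or more), and Cish, Socs2 and Kitl, and some genes that this rule names are not reported here. Replicates of a group differed beyond sampling noise (chi-square per degree of freedom of at least 21.4). The scripts were tested on simulated data for CAF-1 OFF against control, with 200 of 12460 genes changed. There 57% of 2-fold and 83% of 4-fold changes were recovered, and 8.83% of calls were false. Alternatives included DESeq2 1.42.0, other scalings, filters and cutoffs, a replicate block and leaving out each library.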

Additional observations from a re-analysis of the deposited data

Results flagged for a closer look

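Reads that HTSeq placed on no annotated gene, which enter no comparison above, numbered 7.84 and 8.26 per 100 gene counts in HOXA9 OFF (mean 8.05), above the 6.87 and 7.15 of control, while CAF-1 OFF had 5.95 and 7.30. Both HOXA9 OFF libraries were above both controls, and the difference was not tested.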

How the results depend on the processing

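All calls in HOXA9 OFF against control and in CAF-1 OFF against HOXA9 OFF kept their direction under every alternative run, with 7 or 8 and 6 to 8 members called. Receptors called in CAF-1 OFF against control numbered 2 in place of 0 under DESeq2, under the edgeR exact test and without a filter on low counts, and the cause was not tested. Over all genes these settings gave 192, 243 and 378 calls in place of 4, the fit to 4 libraries gave 9 and leaving out 1 library gave 0 to 8. In HOXA9 OFF, calls over all genes fell from 2740 (1622 higher, 1118 lower) to 987 at 2-fold and FDR under 0.01, and to 1592 without control 2. Library size alone gave 1434 higher and 1409 lower there, with the same receptor calls, and 1475 higher and 1334 lower in CAF-1 OFF against HOXA9 OFF in place of 1191 and 1564.

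Directions reversed only for differences that were not called. Il3ra in CAF-1 OFF against HOXA9 OFF was 0.060 on the log2 scale with library size alone, and without 1 library it ranged from -0.53 to 0.37 (0.011 without HOXA9 OFF 1). In CAF-1 OFF against control, leaving out 1 library gave -0.043 to 0.85 for Il3ra, -0.78 to 0.53 for Il6ra (0.37 without CAF-1 OFF 1) and -0.34 to 0.12 for Flt3. Fits that leave 1 library in a group assume that it varies like the other groups. Per length over the longest transcript, 7 of the 9 places in CAF-1 OFF were kept and Flt3 rose to 65.5 RPKM there, while all 9 were kept in control and in HOXA9 OFF.

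The labels give the groups the same replicate numbers without saying that they pair cultures. Deviations of same-numbered libraries correlated at -0.178 (CAF-1 OFF and control), 0.0329 (CAF-1 OFF and HOXA9 OFF) and 0.456 (control and HOXA9 OFF) across 12460 genes. With the replicate block, 0, 8 and 8 receptors were called in the 3 comparisons, and calls over all genes were 2, 2680 and 2684. A crossed replicate block, chosen after seeing the data, gave 71 calls in CAF-1 OFF against control and 0 receptors.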
